A study of Mus musculus with 63 samples.

Results

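The clustered protocadherins are the genes of the alpha, beta and gamma protocadherin clusters on mouse chromosome 18. Members were the genes of the deposited gene count table whose GENCODE M21 symbol was Pcdha, Pcdhac, Pcdhb, Pcdhga, Pcdhgb or Pcdhgc followed by a number, which gave 58 of 55401 genes. The alpha cluster held 14 members, the beta cluster 22 and the gamma cluster 22. On the build GRCm38 all lay on the plus strand, alpha from 36930184 to 37187661, beta from 37264938 to 37524479 and gamma from 37661793 to 37841873. One symbol, Pcdha11, belonged to 2 identifiers, written here as Pcdha11_07440 (ENSMUSG00000007440) and Pcdha11_02206 (ENSMUSG00000102206).

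RNA was taken from dorsal hippocampus of male (M) and female (F) adolescent mice. The animals were of the inbred C57BL/6J or DBA/2J strain, with no transgene or engineered allele in the labels. Each group received ethanol (EtOH, 1.5 g/kg) or saline and underwent fear conditioning (FC) or a control procedure without it (noFC). The 16 groups held 4 libraries each, except 3 in fear-conditioned C57BL/6J males given saline, which made 31 libraries of C57BL/6J and 32 of DBA/2J, 31 of them from males and 32 from females. The labels do not say whether each library came from a separate animal, so p-values measure the spread between these libraries.

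Clustered protocadherins are cadherin-family adhesion proteins of neurons that bind the same isoform on a facing membrane. In the alpha and gamma clusters a variable exon with its own promoter encodes the extracellular, transmembrane and proximal intracellular parts of each isoform, and it is spliced to constant exons that the whole cluster shares. Beta genes are single coding exons with no constant part. Each neuron expresses a subset of isoforms from promoters chosen largely at random, with the zinc-finger protein CTCF and cohesin looping a promoter to distal enhancers, while most C-type isoforms (Pcdhac1, Pcdhac2, Pcdhgc3, Pcdhgc4 and Pcdhgc5) are used more uniformly. The resulting surface code serves self-recognition of dendrites and axons, and gamma isoforms also serve neuron survival and dendrite growth.

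The gene structure decided which table could measure which member. In the gene count table, reads of constant exons entered every gene of the cluster. Mean counts of the 14 alpha members therefore ran only from 2948 (Pcdha8) to 3630 (Pcdhac2), a ratio of 1.23, and those of the 22 gamma members from 11312 (Pcdhgb8) to 13309 (Pcdhgc5), a ratio of 1.18. In the sums of the authors' transcript estimates the same ratios were 62.1 for alpha and 24.5 for gamma. The values by library and the differences are therefore given from transcript sums for alpha and gamma members and from the gene table for beta members, while levels per kilobase and cluster totals come from transcript sums in all 3 clusters. All are in CPM, the usual count per library size, with library sizes adjusted by TMM factors. Of the stretches of 75 bases, the read length, in a beta gene's exons, between 91.0% (Pcdhb21) and 100% (Pcdhb1) occurred in no other gene. Pcdha4 had only 3.0% such stretches, since the model gene Gm42416 overlaps its variable exon. All 58 members passed the filter on low counts in both tables.

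Library totals ran from 21027659 to 61631742 counts (median 26379948). Markers of dentate gyrus, CA1 and CA3 were present in every library. DBA/2J had lower levels of all 6 dentate gyrus markers and of all 6 markers for oligodendrocytes, with summed dentate gyrus levels of 288 to 514 CPM (median 434) in C57BL/6J and 170 to 435 CPM (median 334) in DBA/2J, and summed oligodendrocyte levels with medians of 12600 and 9550 CPM. Choroid plexus markers ran from 30.9 to 12100 CPM between libraries, with 23 libraries above 1000 CPM, 9 of C57BL/6J and 14 of DBA/2J. In bulk tissue, fewer cells of a type and less RNA per cell cannot be told apart.

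Levels of different genes were compared per kilobase of transcript, from the transcript sums of all 3 clusters. In the alpha cluster Pcdhac2 was the most abundant member, at 10.8 CPM per kb (SD 0.871, n = 31) in C57BL/6J and 9.28 in DBA/2J. It alone held 37.6% of the per-kilobase alpha level in C57BL/6J and 31.8% in DBA/2J. Pcdha4 and Pcdha12 followed at 2.69 and 2.67 CPM per kb in C57BL/6J, a gap within their SD. Pcdha8 was lowest in both strains, at 0.163 and 0.184 CPM per kb, with a median of 24 estimated counts per library in C57BL/6J. Pcdhac1, the other C-type alpha isoform, stood among the variable isoforms at 1.53 and 1.17 CPM per kb.

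The beta cluster was flatter at its top. Pcdhb9 led at 3.71 CPM per kb in C57BL/6J and 4.3 in DBA/2J, followed in both strains by Pcdhb17 at 3.17 and 3.28. Pcdhb3 stood at position 14 of 22 in C57BL/6J and at position 3 in DBA/2J in these sums. Pcdhb1, at the start of the cluster, was lowest at 0.0359 and 0.128 CPM per kb, and had a median of 2 gene counts per library in C57BL/6J and 9 in DBA/2J.

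In the gamma cluster the C-type genes Pcdhgc5 and Pcdhgc3 stood above all 19 variable isoforms. Pcdhgc5 reached 34.6 CPM per kb in C57BL/6J and 34.2 in DBA/2J, and Pcdhgc3 reached 26.2 and 25.7. The highest value, 60.2 and 65 CPM per kb for Pcdhgc4, rested on Pcdhgc4-203, a transcript of 2272 bases of which only 153 (6.7%) lay outside exons of other genes. The full-length Pcdhgc4-201 held 11 and 11.5 CPM, against 129 and 141 CPM for Pcdhgc4-203, here without TMM factors and not per kilobase. In the gene table Pcdhgc4 exceeded the low member Pcdhgb5 by only 3 CPM in C57BL/6J and 3.63 in DBA/2J, against 63.7 and 61.7 for Pcdhgc3. By that excess Pcdhgc4 stood below variable isoforms such as Pcdhga11 in C57BL/6J (15.8 CPM) and Pcdhga6 in DBA/2J (5.36 CPM). The top position of Pcdhgc4 is therefore not a measurement of its variable exon. Among the variable isoforms Pcdhga11 was highest in C57BL/6J (7.63 CPM per kb) and lowest of the cluster in DBA/2J (1.15), while Pcdhgb8 was lowest in C57BL/6J (0.342).

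**Figure D1:**
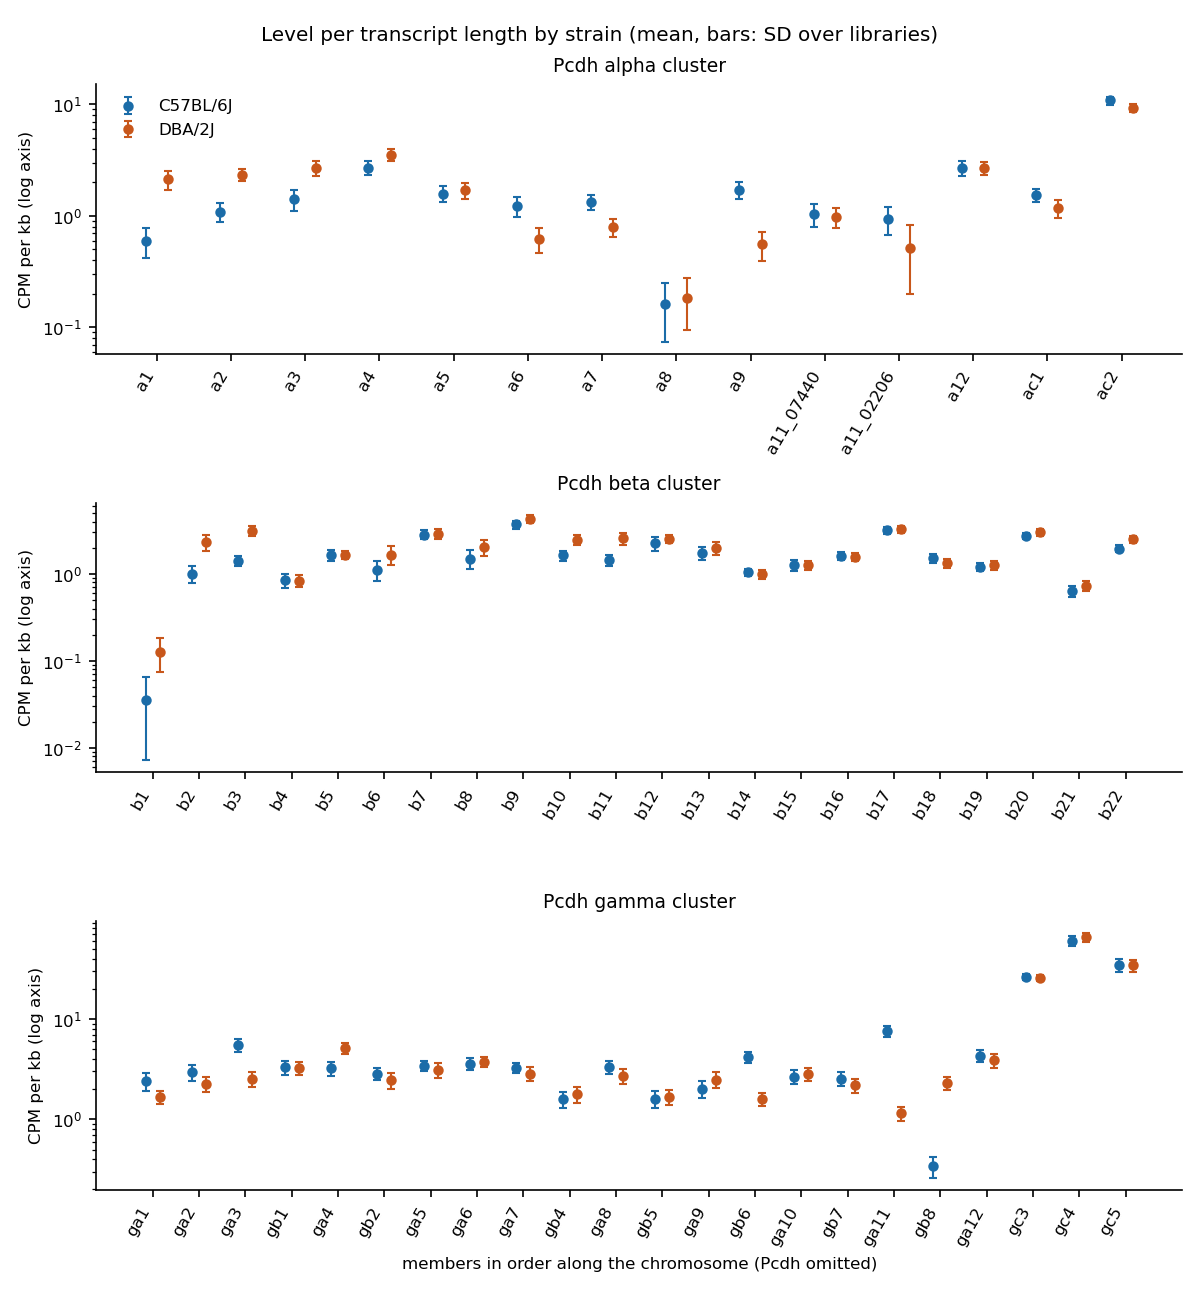
Level of each member per kilobase of transcript (CPM per kb, log axis) in C57BL/6J and DBA/2J, members in chromosomal order within the alpha, beta and gamma clusters; points are means and bars SD over libraries. At the right end of the panels the C-type genes Pcdhac2, Pcdhgc3 and Pcdhgc5 stand above the variable isoforms of their clusters. Pcdhac1 does not, at 1.53 CPM per kb in C57BL/6J, and the high point of Pcdhgc4 rests on a transcript mostly of shared exons. Pcdhga11 and Pcdhgb8 show the widest gaps between strains.

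The strain comparison asked which isoforms differ between DBA/2J and C57BL/6J whatever the treatment, and all strain values are DBA/2J minus C57BL/6J. The largest log2 ratio between strains was 0.25 for a cluster total and 2.74 for a single isoform. Totals are of transcript sums. The summed alpha level was 157 ± 12.3 CPM (SD, n = 31) in C57BL/6J and 159 ± 12.4 (SD, n = 32) in DBA/2J. The beta total was 146 ± 10.6 against 174 ± 10.3 CPM, a log2 ratio of 0.25. The gamma total was 690 ± 51.7 against 640 ± 42.5 CPM, a log2 ratio of -0.11. Strain ranges overlapped in all 3 totals. The lowest library for alpha (113 CPM) and gamma (491 CPM) was the same, an unconditioned DBA/2J female given saline, and without it 40 members were called in the transcript sums and 33 in the gene table. The lower gamma and higher beta totals went with the lower dentate gyrus and oligodendrocyte marker levels of DBA/2J, whose part in them was not tested.

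C-type and variable isoforms were summed separately. The C-type genes of the alpha and gamma clusters together stood at 476 ± 32.9 CPM in C57BL/6J and 469 ± 24.9 CPM in DBA/2J. Variable alpha isoforms stood at 85.1 ± 7.61 and 98 ± 8.3 CPM, and variable gamma isoforms at 286 ± 27.9 and 232 ± 25 CPM. The sum of the variable gamma isoforms was thus lower in DBA/2J, as the gamma total was. The largest changes in mean were -30.8 CPM for Pcdhga11, -13.9 CPM for Pcdhga3 and -12 CPM for Pcdhgb6. Other variable gamma isoforms went both ways, with Pcdhgb8 and Pcdhga4 higher in DBA/2J by 9 and 8.54 CPM. The C-type sum, which pools both clusters, differed by less than its SD. It includes Pcdhgc4, whose mean was 11.1 CPM higher in DBA/2J and rests on the transcript of shared exons described above. The other C-type genes had lower means in DBA/2J.

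In the transcript sums 40 of 58 members were called different between strains by edgeR's quasi-likelihood test with Benjamini-Hochberg adjustment over all genes (adjusted p under 0.05), 22 higher and 18 lower in DBA/2J. Of all 16927 genes tested that way 51.4% were called, 26.4% higher and 25.1% lower. The strain calls of the gene table were 38 of 58 (17 higher, 21 lower) against 50% of all genes, and there 19 gamma members were called lower with differences no lower than -0.12 and 4 alpha members higher with differences up to 0.08. These alpha and gamma calls are not separate, since the members share constant-exon reads. The smallest correlation between 2 members in that table was 0.911 in alpha and 0.946 in gamma. Fitted on the libraries with the lower or the higher title numbers alone, which form 2 rounds of titles, the gene table called 13 and 15 members and the transcript sums 31 and 40. Among transcript sums 10 members (17.2%) differed over 2-fold, against 4.68% of all genes, and the median absolute log2 difference was 0.218 for members and 0.103 for all genes. Ranges of CPM did not overlap between strains for 7 members (12.1%), against 3.73% of all genes: Pcdha1, Pcdha2, Pcdhb3, Pcdhga3, Pcdhgb6, Pcdhga11 and Pcdhgb8. DBA/2J reads were assigned to the same build, which derives from C57BL/6J, and what DBA/2J sequence differences add to these values was not tested.

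**Figure D2:**
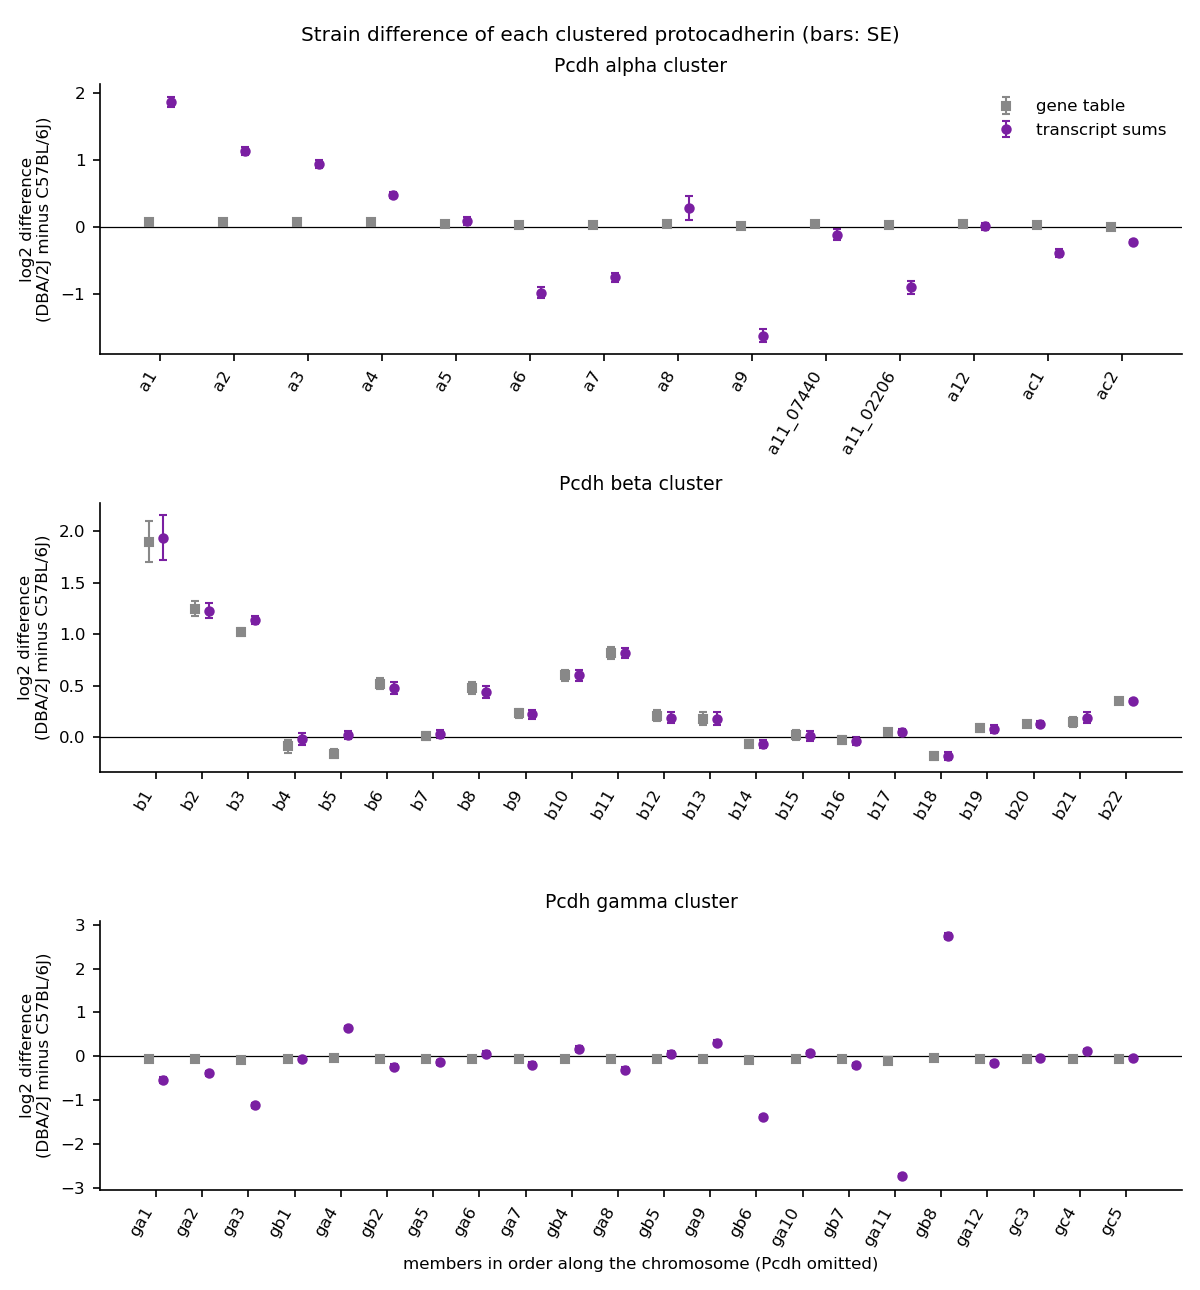
Strain difference of each member (log2, DBA/2J minus C57BL/6J, bars SE) in chromosomal order, from the gene table (grey squares) and the transcript sums (purple circles). Both tables place beta members alike except Pcdhb5, at -0.16 in the gene table and 0.02 in the transcript sums. Alpha and gamma members lie near 0 in the gene table and run from -2.74 to 2.74 in the transcript sums.

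In the alpha cluster 4 members were higher in DBA/2J and 6 lower, with the higher ones at the start of the cluster. Pcdha1, the first gene of the cluster, ran from 1.46 to 5.37 CPM (median 3.01) in C57BL/6J and from 5.77 to 13.1 CPM (median 10.8) in DBA/2J. Pcdha2 ran from 2.96 to 7.7 CPM (median 5.98) in C57BL/6J and from 9.98 to 16.5 CPM (median 12.6) in DBA/2J. Every DBA/2J library lay above every C57BL/6J library for both genes. The log2 differences fell along the next genes, from 1.87 (SE 0.08, adjusted p = 3.1e-26) for Pcdha1 to 1.14 (SE 0.06) for Pcdha2, 0.95 (SE 0.06) for Pcdha3 and 0.48 (SE 0.05) for Pcdha4. Gm42416 overlaps the variable exon of Pcdha4, as given above, so the value of Pcdha4 is less certain.

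The middle of the alpha cluster went the other way. Pcdha9 ran from 4.67 to 12 CPM (median 9.19) in C57BL/6J and from 1.3 to 4.84 CPM (median 2.83) in DBA/2J, with 31 of 32 DBA/2J libraries below the lowest C57BL/6J library. Its log2 difference was -1.62 (SE 0.09, adjusted p = 3.2e-22). Pcdha6, Pcdha11_02206 and Pcdha7 were also lower, by log2 differences of -0.98, -0.9 and -0.75, with overlapping ranges. Pcdha5 (0.09), Pcdha8 (0.28), Pcdha11_07440 (-0.11) and Pcdha12 (0.01) were not called.

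Both C-type alpha isoforms were lower in DBA/2J by less. Pcdhac2 ran from 54.2 to 75.1 CPM (median 62) in C57BL/6J and from 42.2 to 63.8 CPM (median 54.5) in DBA/2J, a log2 difference of -0.22 (SE 0.03, adjusted p = 2e-08). Pcdhac1 ran from 5.95 to 10.9 CPM and from 4.02 to 9.35 CPM, a log2 difference of -0.39 (SE 0.06, adjusted p = 9.9e-08). The ranges overlapped for both. In the gene table, where constant exons weigh most, the same differences were 0 (Pcdhac2) and 0.03 (Pcdhac1), and neither was called.

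Beta genes have no constant exons, although Pcdhb21 and Pcdhb22 overlap each other. In DBA/2J 13 of 22 were called higher and 2 lower, against 25.5% and 24.5% of all genes in the gene table. The largest differences lay at the start of the cluster. Pcdhb3 ran from 3.97 to 7 CPM (median 5.72) in C57BL/6J and from 8.52 to 14.2 CPM (median 11.6) in DBA/2J, with no overlap. Pcdhb2 ran from 1.41 to 3.64 CPM (median 2.87) and from 3.45 to 9.1 CPM (median 6.35), with 31 of 32 DBA/2J libraries above all C57BL/6J libraries. Log2 differences were 1.02 (SE 0.04, adjusted p = 8.1e-28) for Pcdhb3, 1.25 (SE 0.07, adjusted p = 3.3e-22) for Pcdhb2 and 1.9 (SE 0.2, adjusted p = 4.5e-12) for Pcdhb1, whose counts were low. Ranges not overlapping made up 4.02% of all genes in this table, and Pcdhb3 was the only member among them.

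A run of higher values also lay in the middle of the beta cluster. Pcdhb11 ran from 4.73 to 8.85 CPM (median 6.41) in C57BL/6J and from 7.6 to 15.4 CPM (median 11.3) in DBA/2J, a log2 difference of 0.82 (SE 0.06, adjusted p = 5.8e-19), with slight overlap. Pcdhb10 (0.6), Pcdhb6 (0.52), Pcdhb8 (0.48), Pcdhb9 (0.23), Pcdhb12 (0.21) and Pcdhb13 (0.18) were higher with wider overlap. At the end of the cluster Pcdhb22 was higher by 0.35 (SE 0.03), from a median of 12.4 to 16.2 CPM, and Pcdhb21 (0.15) and Pcdhb20 (0.13) by less.

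The 2 beta genes called lower were Pcdhb18 (-0.18, SE 0.04, adjusted p = 0.00046) and Pcdhb5 (-0.16, SE 0.04, adjusted p = 0.0013). Pcdhb5 stood at 0.02 in the transcript sums and was the only one of 22 beta members whose sign differed between tables. Pcdhb4, Pcdhb7, Pcdhb14, Pcdhb15, Pcdhb16, Pcdhb17 and Pcdhb19 were not called, with differences from -0.09 to 0.09.

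In the gamma cluster 5 members were higher in DBA/2J and 11 lower in the transcript sums. Pcdhga11 showed the lowest log2 difference of any member. It ran from 26.8 to 47.5 CPM (median 35.8) in C57BL/6J and from 4.12 to 7.29 CPM (median 5.34) in DBA/2J, a log2 difference of -2.74 (SE 0.04, adjusted p = 2.2e-48). The estimated counts behind it had medians of 1014 and 150.5 per library. Its neighbour Pcdhgb8, which the annotation calls a polymorphic pseudogene, ran from 0.738 to 2.18 CPM (median 1.58) in C57BL/6J and from 7.2 to 14.7 CPM (median 10.6) in DBA/2J, a log2 difference of 2.74 (SE 0.07, adjusted p = 4.7e-36). Neither pair of ranges overlapped, and 1 of these neighbours was low in each strain.

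Pcdhgb6 and Pcdhga3 also separated the strains. Pcdhgb6 ran from 14.3 to 25.8 CPM (median 19.3) in C57BL/6J and from 5.56 to 9.85 CPM (median 7.48) in DBA/2J (log2 -1.39, SE 0.05, adjusted p = 1.1e-31). Pcdhga3 ran from 20.3 to 33.4 CPM (median 26.1) and from 7.15 to 16.4 CPM (median 12.1) (log2 -1.12, SE 0.06, adjusted p = 6.6e-24). The other members called lower were Pcdhga1 (-0.55), Pcdhga2 (-0.39), Pcdhga8 (-0.31), Pcdhgb2 (-0.24), Pcdhgb7 (-0.21), Pcdhga7 (-0.19), Pcdhga12 (-0.16) and Pcdhga5 (-0.14), all with overlapping ranges.

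Besides Pcdhgb8, Pcdhga4 was higher in DBA/2J, from a median of 14.8 CPM in C57BL/6J to 23.7 CPM (log2 0.64, SE 0.05, adjusted p = 4.4e-17), and 29 of 32 DBA/2J libraries lay above all C57BL/6J libraries. Only 35.3% of the 75-base stretches of Pcdhga4 occurred in no other gene, the lowest share in the gamma cluster, so its value is less certain. Pcdhga9 (0.31), Pcdhgb4 (0.16) and Pcdhgc4 (0.12) were called higher with wide overlap, and the value of Pcdhgc4 rested on the transcript of shared exons described above. The call of Pcdhgb4 was lost with no low-count filter (edgeR adjusted p = 0.063), in the rounds of lower and higher title numbers (adjusted p = 0.29 and 0.18) and in 24 of 63 fits that left out 1 library, and that of Pcdhgc4 in the round of lower numbers (adjusted p = 0.2). Pcdhgb1, Pcdhga6, Pcdhgb5 and Pcdhga10 were not called, with differences from -0.06 to 0.07.

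The C-type genes Pcdhgc3 and Pcdhgc5 had the highest gamma levels apart from Pcdhgc4 and differed little. Pcdhgc3 ran from 105 to 138 CPM (median 118) in C57BL/6J and from 102 to 131 CPM (median 114) in DBA/2J, a log2 difference of -0.03 (SE 0.02, edgeR adjusted p = 0.24). Pcdhgc5 ran from 106 to 178 CPM (median 139) and from 80.6 to 173 CPM (median 137), a log2 difference of -0.04 (SE 0.05, edgeR adjusted p = 0.46). Strain ranges overlapped almost entirely for both.

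**Figure D3:**
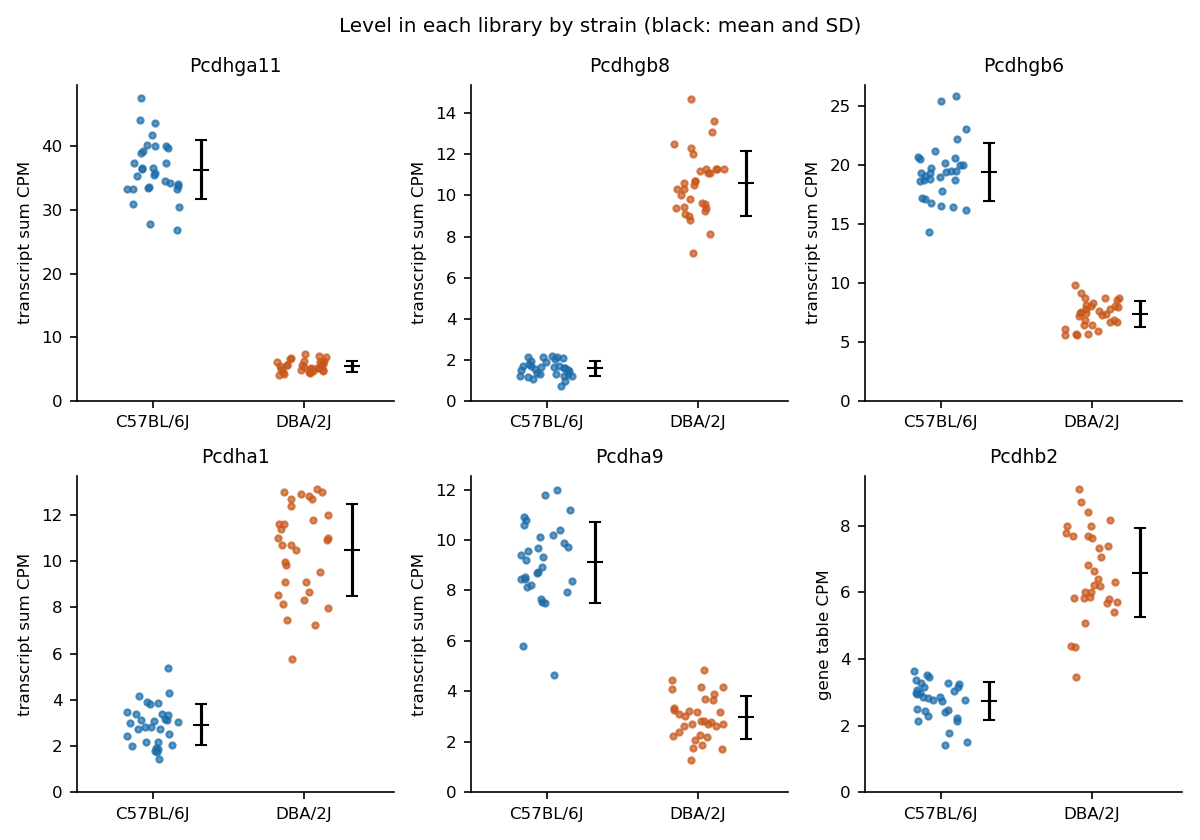
Level in each library of Pcdhga11, Pcdhgb8, Pcdhgb6, Pcdha1 and Pcdha9 (transcript sum CPM) and Pcdhb2 (gene table CPM) in C57BL/6J (blue) and DBA/2J (orange), with mean and SD in black. Strains separate completely for Pcdhga11, Pcdhgb8, Pcdhgb6 and Pcdha1, and Pcdha9 and Pcdhb2 overlap only at the edge.

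The gene table held an own-exon signal for alpha and gamma members as the excess of a gene's count over a low member of its cluster, since constant exons cancel in the difference. Bases shared with only some genes, as in Pcdha4 and Pcdhga4, do not cancel. Relative to Pcdhgb5, Pcdhga11 stood 15.8 ± 2.2 CPM higher in C57BL/6J and -0.737 ± 0.6 CPM in DBA/2J. Pcdhgb8 stood at -3.14 ± 0.794 and 1.34 ± 0.703 CPM, and Pcdhgb6 at 5.96 ± 1.07 and 0.0211 ± 0.733 CPM. Relative to Pcdha8, Pcdha1 stood at 0.679 ± 0.293 and 3.4 ± 0.837 CPM, and Pcdha9 at 2.87 ± 0.576 and 0.734 ± 0.38 CPM. The strain difference of the excess had the sign of the transcript difference for 13 of 13 alpha and 19 of 21 gamma members. Both quantities come from the same libraries and reference, so this compares the counting methods and not separate measurements.

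The sex comparison, male minus female, called 3 beta members and 1 gamma member, all lower in males. From gene counts, 3 of 58 members were called against 0.2% of all genes, 0.12% lower, and in the transcript sums 4 were called against 0.154%, 0.0768% lower. Pcdhb6 in C57BL/6J ran from 2.83 to 4.93 CPM (median 3.58) in females and from 1.97 to 3.27 CPM (median 2.72) in males. In DBA/2J the same gene ran from 3.63 to 5.78 CPM (median 5.35) in females and from 2.69 to 4.87 CPM (median 3.97) in males. The sexes overlapped in both strains, and the male mean was lower in 8 of 8 matched pairs of groups.

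Across strains the log2 difference of Pcdhb6 was -0.41 (SE 0.05, edgeR adjusted p = 6.4e-07). Pcdhb8 stood at -0.31 (SE 0.06, edgeR adjusted p = 0.0028), lower in males in 7 of 8 pairs of groups, and Pcdhb3 at -0.2 (SE 0.04, edgeR adjusted p = 0.012), lower in 8 of 8. Pcdhb8 medians were 3.97 CPM in C57BL/6J females, 2.83 in C57BL/6J males, 4.86 in DBA/2J females and 4.06 in DBA/2J males. Pcdhb3 medians, in the same order, were 5.92, 5.42, 12.3 and 10.4 CPM. Of the 22 beta members, 8 had an unadjusted p under 0.05 by edgeR, against 1094 of all 19974 genes by gene counts. In the transcript sums 5 of 14 alpha and 5 of 22 gamma members did, against 982 of 16927 genes. By gene counts 4 beta members lay above 0, with a median of -0.07 against 0.002 for all genes. The beta total stood at 151 ± 9.8 CPM in C57BL/6J females and 141 ± 9.37 in males, and at 177 ± 9.84 and 171 ± 10.2 CPM in DBA/2J.

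Among gamma members only Pcdhga11 was called for sex, in the transcript sums alone. Its medians were 37 CPM in C57BL/6J females, 34.1 in C57BL/6J males, 5.99 in DBA/2J females and 4.93 in DBA/2J males, and the log2 difference was -0.2 (SE 0.04, edgeR adjusted p = 0.0055). Male means were lower in 6 of 8 pairs of groups, and the ranges overlapped. Within the round of lower title numbers, Pcdhb3 stood at -0.12 (edgeR adjusted p = 0.81), Pcdhb8 at -0.31 (adjusted p = 0.4) and Pcdhga11 at -0.17 (adjusted p = 0.78), and within the round of higher numbers Pcdhb6 stood at -0.36 (adjusted p = 0.071), Pcdhb8 at -0.3 (adjusted p = 0.3) and Pcdhga11 at -0.22 (adjusted p = 0.16). No alpha member was called, with differences from -0.62 (Pcdha8) to 0.25 (Pcdha9). Male means were lower in 7 of 8 pairs of groups for Pcdha8 and higher in 8 of 8 for Pcdha9. Choroid plexus markers were not called for sex, with a median log2 difference of 0.55, and the same 3 and 4 members were called with the choroid plexus level as a covariate.

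**Figure D4:**
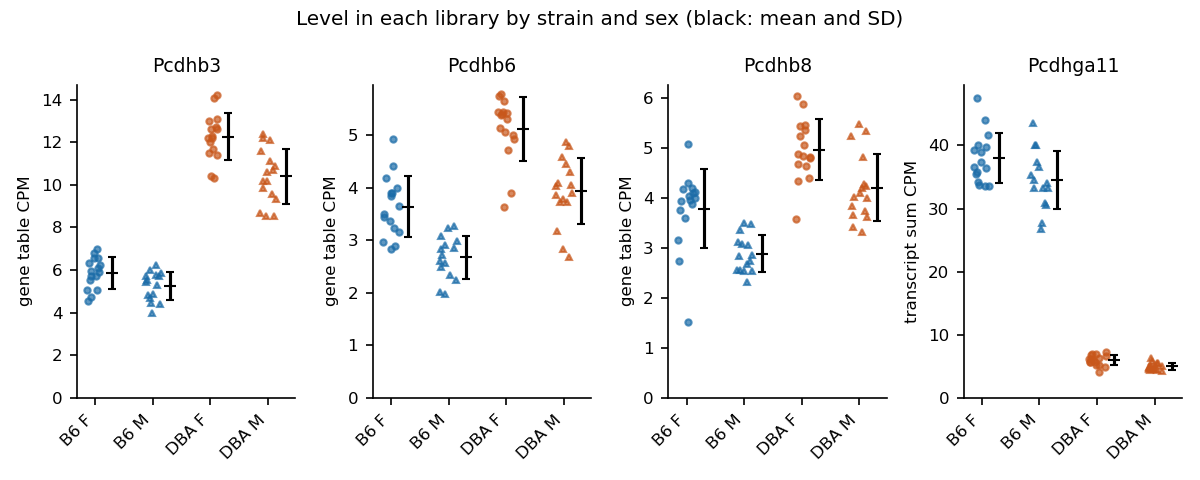
Level in each library of Pcdhb3, Pcdhb6 and Pcdhb8 (gene table CPM) and Pcdhga11 (transcript sum CPM) by strain and sex (B6 for C57BL/6J, DBA for DBA/2J, circles F, triangles M), with mean and SD in black. Male means lie below female means in each strain, with overlapping libraries, and the strain difference of Pcdhga11 and Pcdhb3 exceeds the sex difference.

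Ethanol left no member called in either strain, by edgeR's quasi-likelihood test in either table. By gene counts 0.0901% of all genes were called for ethanol in C57BL/6J and 0.295% in DBA/2J, and in the transcript sums 0.1% and 0.331%. In C57BL/6J the log2 differences ran from -0.07 to 0.24 over alpha members, from -0.15 to 0.49 over beta members and from -0.09 to 0.12 over gamma members, and 1 of 58 members had an unadjusted p under 0.05 in each table. In DBA/2J they ran from -0.12 to 0.21, from -0.09 to 0.13 and from -0.03 to 0.1. There 0 members had an unadjusted p under 0.05. Of all 19974 genes by gene counts, 842 in C57BL/6J and 1669 in DBA/2J had an unadjusted p under 0.05 for ethanol. In the transcript sums these were 662 and 1345 of 16927. DESeq2 also called 0 members in both strains.

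The member with the smallest p in C57BL/6J was Pcdhb12, which ran from 5.84 to 9.2 CPM (median 7.11) after saline and from 4.1 to 8.15 CPM (median 6.63) after ethanol, a log2 difference of -0.15 (SE 0.07, edgeR adjusted p = 1). In DBA/2J it was Pcdhb21, which ran from 2.73 to 4.22 CPM (median 3.46) after saline and from 2.94 to 4.6 CPM (median 3.78) after ethanol (log2 0.13, SE 0.07, edgeR adjusted p = 0.64). The groups overlapped widely in both cases. Pcdhb1 had the largest value, 0.49, with an SE of 0.36 from few reads.

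The C-type genes were compared in full for ethanol. Pcdhgc3 had means of 118 ± 7.8 CPM after saline and 121 ± 8.81 CPM after ethanol in C57BL/6J, and of 116 ± 6.89 and 118 ± 6.74 CPM in DBA/2J. Its log2 differences were 0.04 (SE 0.03) and 0.03 (SE 0.03). Pcdhac2 stood at 63.7 ± 5.16 and 63.6 ± 5.27 CPM in C57BL/6J and at 54.1 ± 5.16 and 55.2 ± 4.15 CPM in DBA/2J, with log2 differences of 0.01 (SE 0.04) and 0.03 (SE 0.04). Pcdhgc5 had log2 differences of -0.04 (SE 0.07) and 0.05 (SE 0.07), and a lowest library of 80.6 CPM among DBA/2J mice given saline. Pcdhgc4, whose sum rests on the transcript of shared exons, had log2 differences of 0.11 (SE 0.05, edgeR adjusted p = 1) in C57BL/6J and 0.03 (SE 0.05) in DBA/2J. Those of Pcdhac1 were -0.05 (SE 0.08) and 0.03 (SE 0.08).

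Fear conditioning, FC minus noFC, also left 0 members called in each strain and table by edgeR and by DESeq2, as 0% of all genes were called by edgeR. In C57BL/6J the log2 differences ran from -0.12 to 0.1 over alpha, -0.09 to 0.12 over beta and -0.11 to 0.16 over gamma members, and 0 members had an unadjusted p under 0.05. In DBA/2J they ran from -0.14 to 0.17, -0.1 to 0.2 and -0.07 to 0.18, and 1 member had an unadjusted p under 0.05 in the transcript sums. That member, Pcdhga11, ran from 4.12 to 6.76 CPM (median 4.93) in noFC and from 4.54 to 7.29 CPM (median 5.72) in FC libraries of DBA/2J, with overlapping ranges (log2 0.18, SE 0.06, edgeR adjusted p = 1). In C57BL/6J its means were 36.3 ± 4.09 and 36.3 ± 5.21 CPM. Of all 19974 genes by gene counts, 786 in C57BL/6J and 670 in DBA/2J had an unadjusted p under 0.05 for conditioning. In the transcript sums these were 671 and 529 of 16927.

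Cluster totals moved little with either factor. The gamma total had means of 687 and 694 CPM after saline and ethanol in C57BL/6J and of 632 and 648 CPM in DBA/2J, with SDs of 36 to 58.8 CPM. Between noFC and FC it stood at 687 and 694 CPM in C57BL/6J and at 643 and 637 CPM in DBA/2J. The beta total, from transcript sums, stayed between 146 and 147 CPM in C57BL/6J and between 173 and 175 CPM in DBA/2J over both factors, and the alpha total between 155 and 161 CPM.

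**Figure D5:**
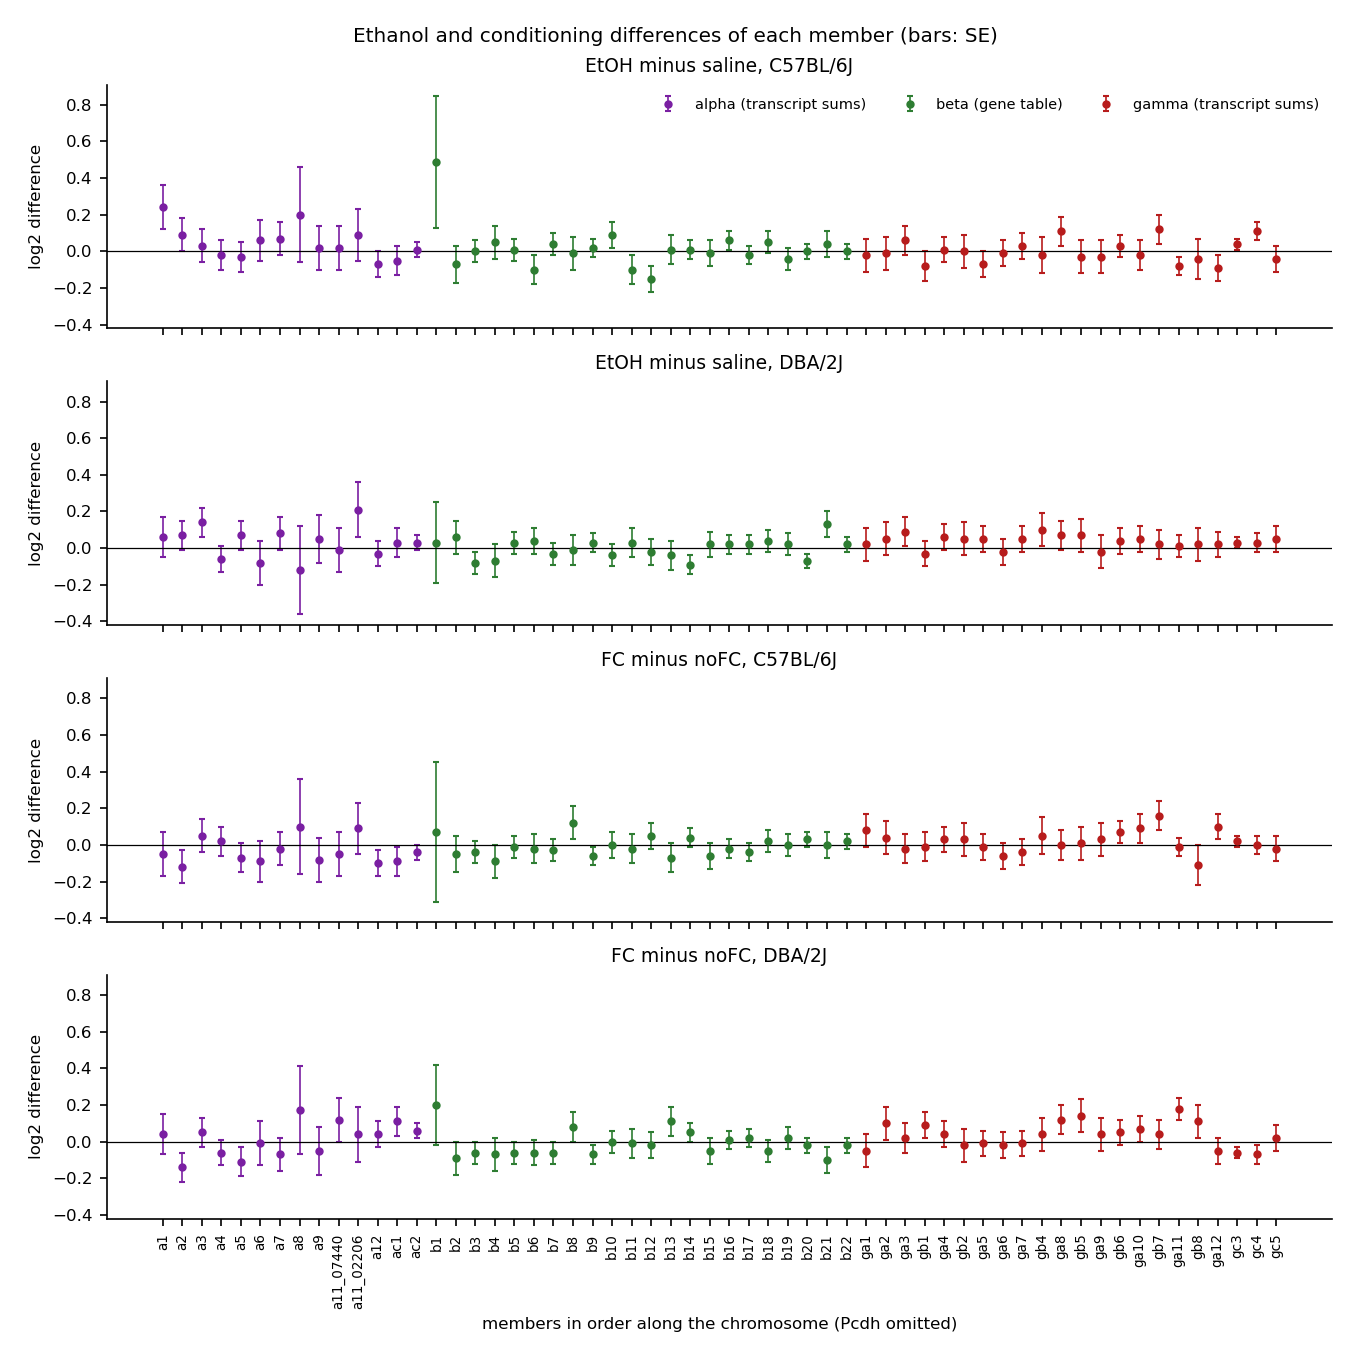
Ethanol (EtOH minus saline) and conditioning (FC minus noFC) differences of each member within each strain, in log2 with SE bars, members in chromosomal order, from transcript sums for alpha and gamma and the gene table for beta. No point was called, and the widest bars belong to Pcdha8 and Pcdhb1, which had the fewest reads.

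Differences of effects were tested in the same edgeR fits, and no member was called. The ethanol effect differed between strains for 0.01% of all genes by gene counts and 0.0118% in the transcript sums, the conditioning effect for 0% in both tables, and the ethanol effect between FC and noFC for 0% in both. The strain difference differed between sexes for 0% of all genes by gene counts and 0.00591% in the transcript sums. The smallest p among members belonged to Pcdhb12, whose medians were 7.41 CPM in C57BL/6J females, 5.96 in C57BL/6J males, 7.91 in DBA/2J females and 7.92 in DBA/2J males. The difference of its strain difference between sexes was 0.32 (SE 0.1, edgeR adjusted p = 1). The difference in conditioning effect of Pcdhga11 between strains was 0.19 (SE 0.08, edgeR adjusted p = 1).

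After subtraction of group means, members of a cluster varied together only in part. The median Pearson correlation of log2 CPM between gamma members was 0.31 over 31 C57BL/6J libraries and 0.46 over 32 DBA/2J libraries, for 231 pairs. Between beta members it was 0.23 and 0.18, and between alpha members 0.11 and 0.19. Across clusters the medians were 0.11 and 0.21 for alpha with gamma and 0.09 and 0.16 for alpha with beta, near those within alpha. For beta with gamma they were 0.03 and 0.11. The points share libraries, scaling and, for alpha and gamma, the assignment of reads of constant exons. The GC content of the longest transcript was 51% to 55.4% in gamma members, above the overlapping ranges of 46.5% to 49.8% in alpha and 39.1% to 49% in beta members.

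Related genes were counted from lists in the gene table, where 25.5% of all genes were called higher and 24.5% lower. Of 12 non-clustered protocadherins, which lie outside these clusters, 4 were higher and 4 lower in DBA/2J. Pcdh12, an endothelial protocadherin, stood at 0.55 (SE 0.11) and Pcdh17, which organises presynaptic contacts, at -0.45 (SE 0.03). Of 25 genes for promoter choice and chromatin at the clusters 7 were higher and 4 lower, with a median of 0.01. Of the 7 higher genes Mau2, the partner of the cohesin loader Nipbl, was highest at 0.43 (SE 0.02), and the others are not named here. The 4 lower genes were the cohesin subunits Stag1 (-0.17) and Smc3 (-0.13), Ctcf (-0.06, SE 0.02) and Smchd1, a repressor of the clusters (-0.05, SE 0.02).

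Of 23 signalling partners and proteases 4 were higher and 4 lower, with Ret, a receptor kinase that binds clustered protocadherins, at 0.56 (SE 0.15) and Ptk2, the focal adhesion kinase that gamma isoforms restrain, at -0.15 (SE 0.02). Of the 42 tested genes that flank or interleave the clusters 14 were higher and 8 lower, among them Cd14 at 0.85 (SE 0.06) and Hars at 0.21 (SE 0.02), and Gm10544 at -1.11 (SE 0.16) and Tmco6 at -0.25 (SE 0.03), while Taf7 between beta and gamma (-0.04) was not called. For sex 0 genes of these 4 lists were called.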

How the data were processed

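The authors deposited whole-number read counts for each gene and Salmon estimated counts for each transcript, for dorsal hippocampus libraries read from 1 end at 75 bases with a stranded kit, per the labels. Per the submitters' processing notes, the build was GRCm38 and the tools included fastp, HISAT2, featureCounts, Salmon and DESeq2. Their versions, and how featureCounts treated reads overlapping several genes, are not given in the sources used here. Groups came from the labels. Symbols came from GENCODE M21, and transcript estimates were summed by gene and rounded.

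Both tables were fitted with edgeR 4.0.16 (filterByExpr with a minimum count of 10, TMM factors from 0.96 to 1.05 in the gene table, 1 coefficient per group, quasi-likelihood F test, two-sided) over all genes, 19974 in the gene table and 16927 in the sums. The Benjamini-Hochberg method adjusted p over all genes of a contrast, and calls needed an adjusted p under 0.05. The planned test was on the gene table. Because that table counts constant exons in every alpha and gamma gene, transcript sums are given for those clusters, and their further alternatives and the excess over a low member were chosen after seeing the data. DESeq2 1.42.0, its size factors, no low-count filter, a choroid plexus covariate, each round of title numbers (the lower and the higher ones) and leaving out each library were alternatives.

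Members, lists and tests were chosen with earlier results of these data known. Named members were the C-type genes, the 4 largest called differences per direction and cluster for strain, all called members or the 2 with the smallest p otherwise, and the extremes per length. Others are named to account for every member, and list genes by smallest p or for their role. Same-numbered libraries deviated with a median correlation of 0.04 over 93 pairs, against -0.01 over 279 pairs of different numbers. The labels do not describe the numbers as pairs, and the main fits did not use them. Each number lies within a single strain and sex. The p-values for strain and sex therefore take libraries of the same number as independent, and no block by number was fitted for these contrasts. Only the strain contrast was tested on simulated counts. At a log2 size of 0.25, 70% of 50 changed genes were recovered in the gene table and 76% in the transcript sums. Ethanol, conditioning, shared reads and likeness by title number were not simulated. No member sequence is printed.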

Additional observations from a re-analysis of the deposited data

Results flagged for a closer look

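In 8 of 225 checks of groups of 4 libraries, 1 library lay far from the other 3 by Dixon's criterion (95% level), which chance alone meets in about 1 in 20 groups. The checks covered 12 members and the 3 cluster totals in transcript sum CPM. For the gamma total, 1 library of fear-conditioned C57BL/6J males given ethanol stood at 610 CPM, below 657 to 666 in its group, and 1 of unconditioned DBA/2J males given saline at 599 CPM, below 667 to 673.

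Among alpha members, Pcdha2 stood at 14.3 CPM in 1 library of fear-conditioned DBA/2J females given saline (others 10.4 to 10.6), and Pcdha9 at 11.8 CPM in 1 library of unconditioned C57BL/6J females given ethanol (others 8.54 to 8.94). Among gamma members, Pcdhga11 stood at 5.81 CPM in 1 library of fear-conditioned DBA/2J males given ethanol (others 5.05 to 5.12), and Pcdhgb8 at 9.37 CPM in 1 library of fear-conditioned DBA/2J females given ethanol (others 11.1 to 11.3). Among beta members, Pcdhb6 stood at 2.84 CPM in 1 library of fear-conditioned DBA/2J males given saline (others 3.58 to 3.7), and Pcdhb8 at 4.89 CPM in 1 library of fear-conditioned C57BL/6J females given ethanol (others 3.99 to 4.11).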

How the results depend on the processing

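Of the 40 strain calls of the transcript sums, 40 were kept by DESeq2, 31 and 39 within the rounds of lower and of higher title numbers, and 38 in every fit that left out 1 library. In the gene table the strain count of 38 became 13 and 15 within the rounds, 30 with no low-count filter, and 30 to 40 with 1 library left out (39 to 41 in the transcript sums). For sex 1 member was called in each round in either table, and 3 to 4 (gene table) or 4 to 5 (transcript sums) with 1 library left out. Ethanol, conditioning and all differences of effects gave 0 members in each of these fits. Cluster totals of the gene table, where constant exons enter every gene, were 1510 and 1550 CPM (alpha) and 9290 and 8880 CPM (gamma) in C57BL/6J and DBA/2J, against 157, 159, 690 and 640 CPM in transcript sums. The sign of the strain difference turned from the gene table to transcript sums for Pcdhac1 (-0.39), Pcdhgc4 (0.12), Pcdhb5 (0.02) and further alpha and gamma members, among them Pcdha9 and Pcdhgb8. Pcdhac2, at 0 in the gene table, changed sign with the choroid plexus covariate (0) and ran from -0.01 to 0.01 with 1 library left out. The conditioning differences of Pcdha12 in C57BL/6J (0.01 in the transcript sums of the round of higher title numbers) and of Pcdhb9 in DBA/2J (0.05 in the gene table of the round of lower numbers) also changed sign, and the cause was not tested. With title numbers as a replicate block, which the labels do not describe as pairs, 0 members were called for ethanol and conditioning. Among other groups of the same strain and sex, 27 of 63 libraries correlated best with a library of their own number. The pairs searched held 93 of the same number and 279 of different numbers. The strain and sex fits did not allow for such likeness, whose size against chance was not tested. Few reads limit Pcdhb1 and Pcdha8.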
